A study of Homo sapiens with 6 samples.

Results

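The genes described are those of the proteasome whose symbols begin with PSMA, PSMB, PSMC or PSMD and a digit, 1 gene excepted, which is not analysed here. They number 39 of the 19937 genes in the count table. By role they are the 7 genes of the alpha ring, 4 noncatalytic and 3 constitutive catalytic genes of the beta ring, the interferon-induced catalytic genes PSMB8 and PSMB10, 6 ATPases, 3 other base subunits, 8 lid subunits and 3 base assembly chaperones. PSMA8, a testis form, and PSMB11, a thymus form, complete the subunits, and PSMC3IP shares the naming pattern but encodes a recombination factor and no subunit.

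The study knocked down SQLE, which encodes squalene epoxidase, an enzyme of cholesterol synthesis, in U2OS, an established human osteosarcoma cell line. Poly(A) RNA was sequenced from 3 libraries of cells carrying SQLE-shRNA (shSQLE) and 3 libraries of cells carrying a scramble shRNA (shControl). Both groups were infected with pGIPZ lentivirus and kept in puromycin for 2 weeks, so the control cells also carry the vector and its selection. Neither the SQLE hairpin used, nor whether a group is a pool or a clone, nor whether its 3 libraries are separate cultures is stated for these libraries. The study's general statement is of at least 3 independent experiments, with a representative experiment shown and technical replicates within it unless specified otherwise. How this applies to these libraries is not stated. Their p-values measure the spread between these libraries, which may be technical.

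Counts on genes came to between 12212378 and 14393292 per library. Normalised counts are scaled to the average library with edgeR's TMM factors. SQLE itself had 1349, 1867 and 1924 normalised counts in shControl 1, 2 and 3 and 229, 204 and 219 in shSQLE 1, 2 and 3, a log2 fold change of -2.98 ± 0.17 (SE, adjusted p = 0.000299 by edgeR's quasi-likelihood test). Of the osteoblast and mesenchymal markers, RUNX2, COL1A1, SPARC and VIM were present in all 6 libraries, while COL1A2 and ALPL were at 5.4 normalised counts or fewer. The leukocyte marker PTPRC was at 0, PECAM1 (endothelial) lay between 2.1 and 14.7 and EPCAM (epithelial) between 49.7 and 74.4, but KRT8, also epithelial, ranged from 5050 to 8574. The library shControl 1 stood apart from shControl 2 and 3 across the whole table. The chi-square per degree of freedom between 2 libraries, larger for less alike, was 53.9 and 63.8 for these pairs. For shControl 1 with shSQLE 1, 2 and 3 it was 32.2, 26.6 and 54.3. For shSQLE 3 it was 9.84 and 15.9 with shSQLE 1 and 2, and 23.4 and 24.1 with shControl 2 and 3. Counts of calls are also given without shControl 1, with values for some of the genes whose call changes. The part of this likeness across groups in those values was not tested.

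The proteasome is the protease that degrades proteins tagged with ubiquitin. Its 20S core is a stack of rings, with alpha subunits in the outer rings and beta subunits in the inner rings, and PSMB5, PSMB6 and PSMB7 carry the active sites. A 19S cap binds the ends of the core. ATPases of the base unfold the substrate and the lid removes its ubiquitin chain. In cells exposed to interferon, PSMB8 takes the place of PSMB5 and PSMB10 that of PSMB7 in newly built cores, which are known as immunoproteasomes and serve antigen presentation. Genes of the constitutive subunits are known to be raised together by the transcription factor NRF1 (gene NFE2L1), whereas PSMB8 and PSMB10 follow interferon signalling.

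Nearly all of these genes were transcribed in U2OS. PSMA8 had no count in any library and PSMB11 had 1 count, in shSQLE 3, and neither passed edgeR's filter on low counts, which left 37 of the 39 genes. The 39 genes together took 0.829%, 0.707% and 0.707% of all counts in shControl 1, 2 and 3 and 0.813%, 0.858% and 0.803% in shSQLE 1, 2 and 3. The share was higher in each shSQLE library than in shControl 2 and 3, and shControl 1 lay inside the shSQLE range. Because RNA was taken from whole cultures, fewer transcripts in every cell and fewer cells with the transcript cannot be told apart.

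Levels were set per kb of canonical transcript to compare different genes. These transcripts run from 762 bases (PSMB3) to 4426 (PSMB2), and the isoforms present in U2OS were not measured, so the order is approximate. Over all 6 libraries the order began with PSMA7, an alpha ring subunit, at 8260 normalised counts per kb. PSMD2, a base scaffold that receives ubiquitin-like domains, followed at 5725 and PSMB4, a noncatalytic beta subunit, at 4994. The constitutive catalytic genes were close to each other, with 3251 for PSMB7, 3153 for PSMB6 and 2809 per kb for PSMB5. PSMB8 had 545 and PSMB10 had 41.1 per kb, ranks 27 and 36 of 37. The lowest of the genes tested was PSMA2 at 13.1 per kb, beside alpha ring partners that are built into the same core in equal number. PSMA1 shares 26.7% of its exon length with a readthrough gene on its own strand, PSMA2 17.2%, PSMA6 14.1%, PSMB10 39.4% and PSMD9 14.9%. These shares are of the exons of all annotated transcripts of the gene. In bases the overlaps are 814, 1445, 919, 640 and 1307, against canonical transcripts of 1195, 1434, 1023, 977 and 2725. They can thus cover a larger part of the canonical transcript. The readthrough gene of PSMA2 was itself counted at 0 to 2 reads per library. How the authors' counting treated reads that fit 2 genes is not stated, so the levels of these 5 genes are uncertain. The exons of PSMC5 overlap those of FTSJ3 on the opposite strand over 15.3% of their length.

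No proteasome gene passed the test between shSQLE and shControl in either direction. At an adjusted p under 0.05 (quasi-likelihood test of edgeR, Benjamini-Hochberg adjustment over 12450 genes), 0 of 37 were called, while 3.21% of all genes tested were called, 0.369% as higher and 2.84% as lower in shSQLE. At an unadjusted p under 0.05, 3 of the 37 were higher (4.83% of all genes) and 0 were lower (9.89% of all genes). DESeq2 also called 0 of the 37 genes it gave an adjusted p, against 5.15% of all genes, and had 3 at an unadjusted p under 0.05, against 11.9%.

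The fold changes lay mostly on one side nonetheless. The log2 fold change was above 0 for 34 of 37 proteasome genes, against 48.4% of all genes tested, and its median was 0.16 against -0.01 over all genes. PSMB10, PSMB8 and the chaperone gene PSMD5 were the 3 below 0. For 9 of the 37, every shSQLE library was higher than every shControl library (10.0% of all genes), and for 0 of 37 every shSQLE library was lower (12.1% of all genes). Without shControl 1, 34 of 37 were again above 0, and 26 of 37 had every shSQLE library above both controls, against 28.6% of all genes. These genes are transcribed and measured together within the same libraries, so they are not 37 independent observations.

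**Figure D1:**
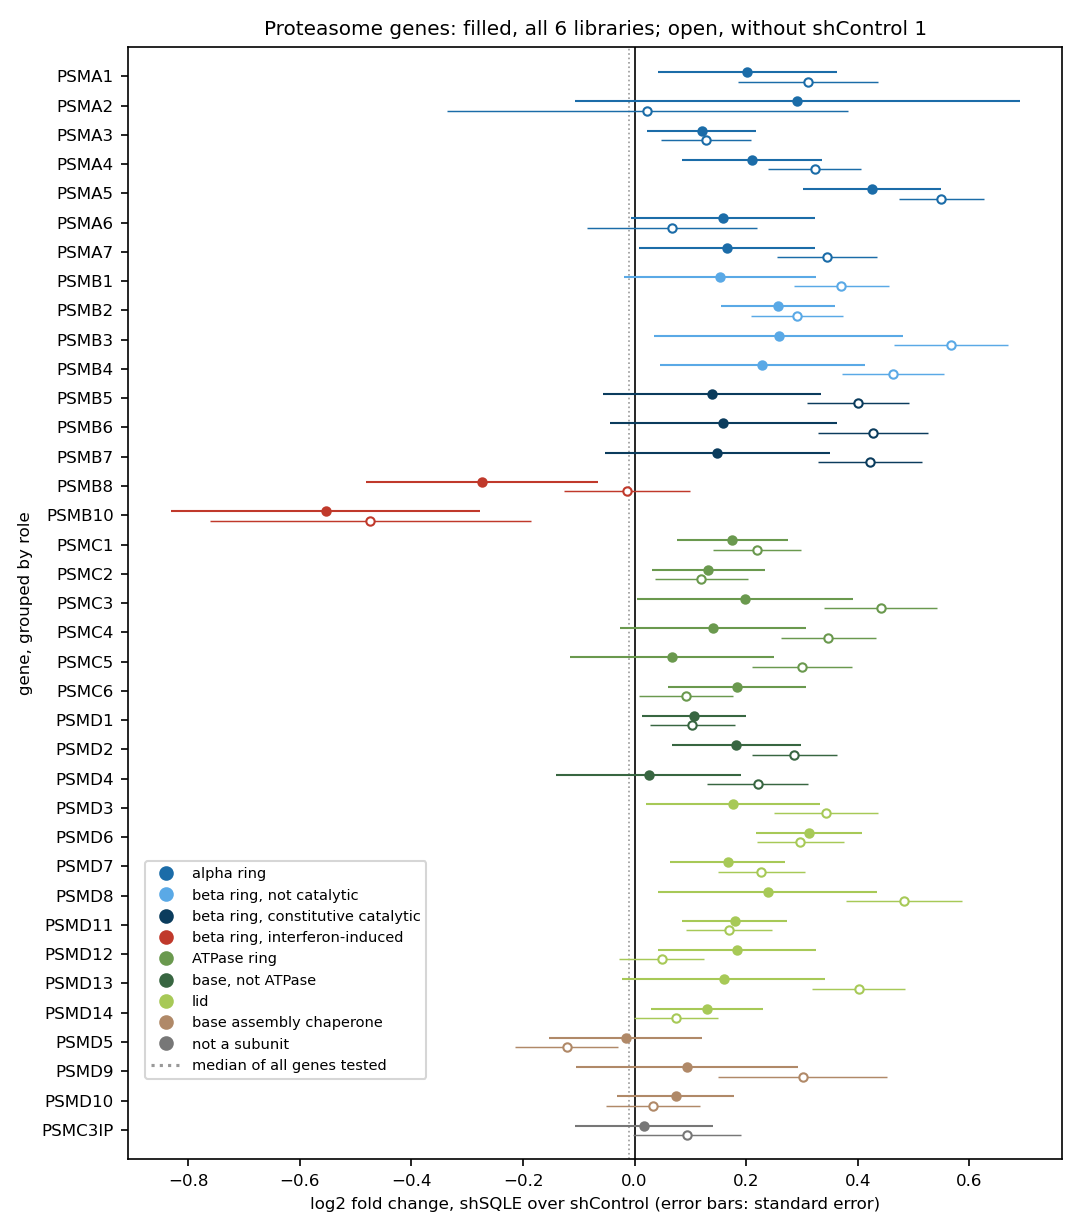
Log2 fold change of shSQLE over shControl on the x axis for the 37 proteasome genes tested, grouped by role on the y axis, with filled points for all 6 libraries and open points without shControl 1. Bars are standard errors. Most filled points lie between 0 and 0.43, PSMB8 (-0.27) and PSMB10 (-0.55) lie on the other side, and open points of PSMB1, PSMB3 to PSMB7 and PSMD8 lie well to the right of the filled ones.

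In the alpha ring, whose subunits gate the entry to the core, all 7 log2 fold changes were above 0, from 0.12 (PSMA3) to 0.43 (PSMA5). PSMA5 had 5255, 4173 and 4113 normalised counts in shControl 1, 2 and 3 and 6161, 6241 and 5784 in shSQLE 1, 2 and 3. The lowest shSQLE library was thus above the highest control, and the groups did not overlap. Its log2 fold change of 0.43 ± 0.12 (SE), a 1.34-fold difference, had the smallest p of all the proteasome genes but did not pass the adjustment (edgeR adjusted p = 0.138, and 0.000264 without shControl 1). PSMA5 (ENSG00000143106) lies on the minus strand of hg38 at chr1:109399042-109426448, and 1 pseudogene of it is annotated. In PSMA1, PSMA3, PSMA4, PSMA6 and PSMA7 the groups overlapped, as they did in PSMA2, whose normalised counts were only 9.2 to 27.1.

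The 4 noncatalytic beta genes had log2 fold changes between 0.15 and 0.26. PSMB2, on the minus strand at chr1:35599541-35641526, was the only one of them whose groups did not overlap. It had 2476, 2390 and 2236 normalised counts in shControl 1, 2 and 3 and 2925, 2925 and 2634 in shSQLE 1, 2 and 3. The difference was 0.26 ± 0.10 on the log2 scale (edgeR adjusted p = 0.290, and 0.0166 without shControl 1). PSMB3 had almost the same log2 fold change, 0.26, but a standard error of 0.22, since shControl 1 (3422) was the highest of its 6 libraries and shControl 2 (2066) and 3 (1923) the lowest.

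The constitutive catalytic genes PSMB5, PSMB6 and PSMB7, which carry the chymotrypsin-like, caspase-like and trypsin-like sites, showed the same pattern. PSMB5 had 3718, 2401 and 2258 normalised counts in shControl 1, 2 and 3 and 2981, 3407 and 2831 in shSQLE 1, 2 and 3. PSMB6 had 3289, 2081 and 1997 against 2756, 3063 and 2401, and PSMB7 had 4083, 2558 and 2463 against 3227, 3771 and 3090, in the same order of libraries. In each gene shControl 1 was the highest library, shControl 2 and 3 were the lowest, and the shSQLE libraries lay between them, so the groups overlapped. The log2 fold changes were 0.14 ± 0.20, 0.16 ± 0.20 and 0.15 ± 0.20 (SE), with edgeR adjusted p from 0.805 to 0.829. Without shControl 1 they were 0.40, 0.43 and 0.42, with edgeR adjusted p from 0.00485 to 0.00627.

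PSMB5, PSMB6 and PSMB7 kept nearly constant ratios to each other across the libraries. The log2 ratio of PSMB7 to PSMB5 stayed between 0.09 and 0.15 in all 6 libraries, and its group means were 0.12 in shControl and 0.13 in shSQLE. The log2 ratio of PSMB6 to PSMB5 ranged from -0.24 to -0.11, with means of -0.19 and -0.17. Neither ratio separated the groups.

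**Figure D2:**
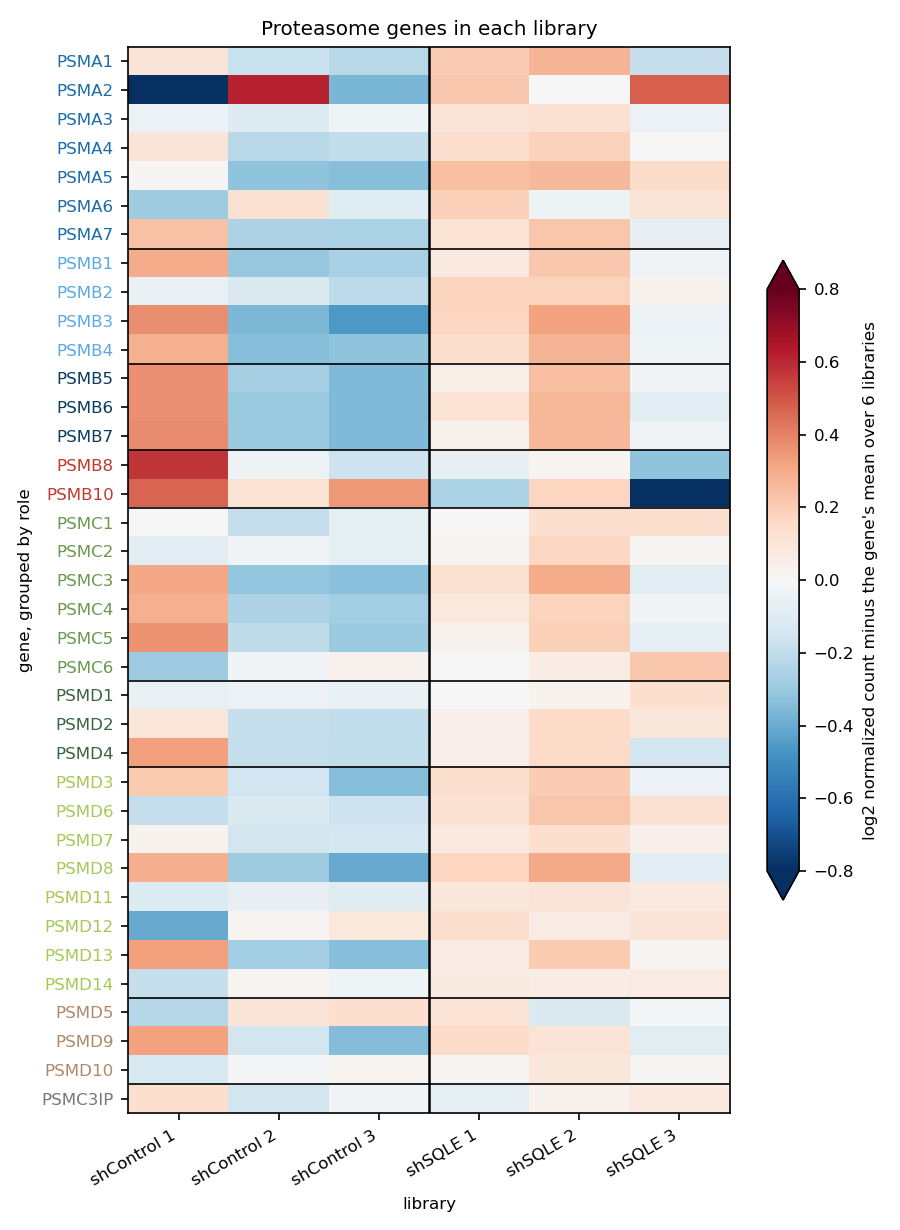
Log2 normalised count of each of the 37 proteasome genes (y axis, grouped by role and coloured by it as in the plot of fold changes) in each of the 6 libraries (x axis), minus the gene's mean over the 6. Red is above and blue is below that mean. PSMB1, PSMB3 to PSMB8, PSMC3 to PSMC5, PSMD8 and PSMD13 are red in shControl 1 and blue in shControl 2 and 3, while PSMC6, PSMD5 and PSMD12 are blue in shControl 1.

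In the ATPase ring, the hexamer that pulls the substrate into the core, all 6 log2 fold changes were above 0, from 0.07 (PSMC5) to 0.20 (PSMC3). The smallest p of the ring was that of PSMC1, on the plus strand at chr14:90256527-90275429. Its normalised counts were 4098, 3618 and 3893 in shControl 1, 2 and 3 and 4124, 4499 and 4486 in shSQLE 1, 2 and 3. All shSQLE libraries were above all controls, by a narrow gap, and the log2 fold change was 0.18 ± 0.10 (SE, edgeR adjusted p = 0.50, and 0.0471 without shControl 1). The exons of PSMC1 overlap those of NRDE2 on the opposite strand over 76.1% of their length, 13 pseudogenes of it are annotated, and whether the counting used the strand is not stated. PSMC2 was the other ATPase gene whose groups did not overlap.

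Of the 3 base subunits without ATPase activity, PSMD1 had groups that did not overlap, while PSMD2 and the ubiquitin receptor gene PSMD4 overlapped. Their log2 fold changes were 0.11, 0.18 and 0.03. The lid held 4 genes without overlap, PSMD6, PSMD7, PSMD11 and PSMD14, among 8 log2 fold changes from 0.13 to 0.31. Of all genes tested, 10.0% were higher in shSQLE without overlap. PSMD14 encodes the deubiquitinase of the lid, which cuts the ubiquitin chain off the substrate, and its 3 shSQLE libraries lay between 2330 and 2340 normalised counts against 1967, 2261 and 2179 in shControl 1, 2 and 3.

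PSMD6, a structural lid subunit on the minus strand at chr3:64010550-64024010, was the lid gene with the smallest p. It had 1976, 2083 and 2007 normalised counts in shControl 1, 2 and 3 and 2449, 2631 and 2455 in shSQLE 1, 2 and 3. Here the 3 controls were close to each other, shControl 1 included, and all shSQLE libraries were higher. The difference of 0.31 ± 0.10 on the log2 scale, or 1.24-fold, had an edgeR adjusted p of 0.162 and a DESeq2 adjusted p of 0.0522. Without shControl 1 it was 0.30 (edgeR adjusted p = 0.0118).

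The base assembly chaperones, which bind ATPases before the base is complete and are absent from the finished enzyme, differed less. PSMD10, also known as the oncoprotein gankyrin, had 792, 856 and 877 normalised counts in shControl 1, 2 and 3 and 872, 919 and 867 in shSQLE 1, 2 and 3. The groups overlapped, with a log2 fold change of 0.07 ± 0.11 (SE, edgeR adjusted p = 0.830). PSMD9 and PSMD5 had log2 fold changes of 0.09 and -0.02. PSMC3IP, the gene that encodes no subunit, was at 0.02.

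The interferon-induced genes PSMB8 and PSMB10 had lower means in shSQLE than in shControl, apart from the rest of the beta ring. PSMB8 (ENSG00000204264, chromosome 6, minus strand) had 893, 584 and 536 normalised counts in shControl 1, 2 and 3 and 573, 610 and 480 in shSQLE 1, 2 and 3. The groups overlapped, and shControl 1 alone was above every shSQLE library. The log2 fold change was -0.27 ± 0.21 (SE, edgeR adjusted p = 0.645).

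PSMB10 (ENSG00000205220, chr16:67934506-67936864, minus strand) was far lower, with 53.1, 41.6 and 49.0 normalised counts in shControl 1, 2 and 3. In shSQLE 1, 2 and 3 it had 32.3, 43.4 and 21.6. shSQLE 2 lay above shControl 2, so here too the groups overlapped. The log2 fold change of -0.55 ± 0.28 did not pass the test (edgeR adjusted p = 0.427). Of the exons of PSMB10, 39.4% are shared with a readthrough gene, itself counted at 11 to 25 reads per library.

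Against the constitutive subunit that each replaces, both interferon-induced genes separated the groups. Per kb of transcript, PSMB8 stood at 22.3%, 22.6% and 22.03% of PSMB5 in shControl 1, 2 and 3 and at 17.85%, 16.6% and 15.75% in shSQLE 1, 2 and 3. The 3 controls agreed to within 1 percentage point, shControl 1 included, and every shSQLE library lay below them. The log2 ratio was -2.06 ± 0.02 in shControl and -2.47 ± 0.09 in shSQLE (mean and SD, n = 3 each), a difference of -0.42 ± 0.05 (SE) or 0.750-fold, with a two-sided exact permutation p of 0.1. That is the smallest p that 3 libraries against 3 can give. Of all genes tested, 13.6% had a ratio to PSMB5 that was lower in shSQLE without overlap.

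PSMB10 stood at 1.31%, 1.64% and 2.01% of PSMB7 per kb in shControl 1, 2 and 3 and at 1.01%, 1.16% and 0.704% in shSQLE 1, 2 and 3. The groups again did not overlap, though the controls spread more widely than for PSMB8. The log2 ratio differed by -0.80 ± 0.28 (SE), or 0.576-fold, with the same smallest exact permutation p of 0.1. For the ratio to PSMB7, 13.4% of all genes tested were lower in shSQLE without overlap.

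The other constitutive subunits were also used as partners. Set against each of the 31 constitutive subunits of the 26S proteasome in turn, PSMB8 had a log2 ratio lower by 0.29 to 0.71, without overlap for 23 of the 31, and PSMB10 by 0.66 to 1.08, without overlap for 27. For each gene these 31 ratios share a numerator and are not independent. All 31 partners had log2 fold changes above 0, so the direction of the differences was fixed by the fold changes already given. The share of all genes without overlap was taken only for the ratios to PSMB5 and PSMB7. Against the geometric mean of PSMB1 to PSMB7, a reference added after the data were seen, the differences were -0.46 ± 0.05 for PSMB8 and -0.83 ± 0.26 for PSMB10 (SE, exact permutation p = 0.1 for each).

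**Figure D3:**
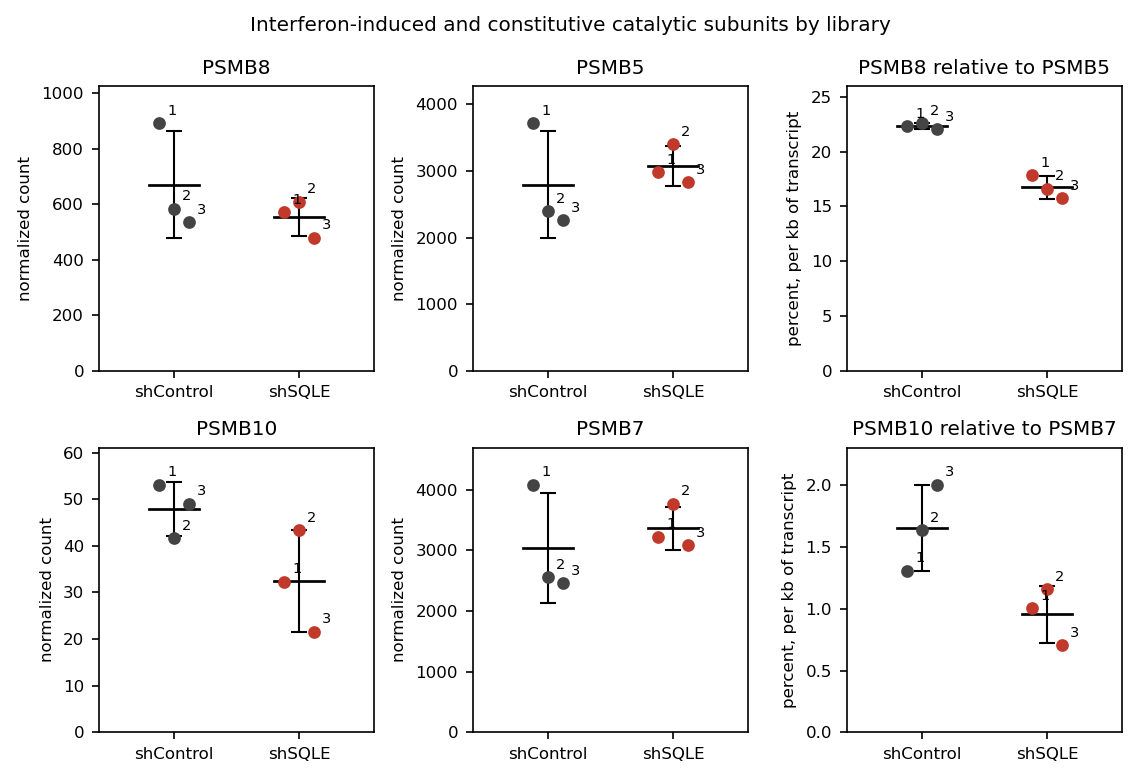
Normalised counts of PSMB8 and PSMB5 (top) and of PSMB10 and PSMB7 (bottom), and on the right the level of the interferon-induced gene per kb as a percentage of its constitutive partner. Each point is 1 library with its replicate number, horizontal lines are means and bars are SD (n = 3), and all y axes start at 0. The counts overlap between shControl and shSQLE in all 4 genes, whereas both percentages separate them, with PSMB8 at 22.03% to 22.6% of PSMB5 in shControl and 15.75% to 17.85% in shSQLE.

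Which of the pair differed depended on shControl 1. Without that library the log2 fold change of PSMB8 was -0.01 ± 0.11 (SE, edgeR adjusted p = 0.938) and that of PSMB5 was 0.40 ± 0.09 (adjusted p = 0.00576). With it they were -0.27 and 0.14. The difference of the log2 ratio stayed at -0.42 in both cases. For PSMB10 the log2 fold change was -0.47 ± 0.29 without that library (edgeR adjusted p = 0.222), and for PSMB7 it was 0.42 ± 0.09 (adjusted p = 0.00485).

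The promoter letters of these genes are shown because interferon factors are known to bind short elements near the start of PSMB8 and PSMB10. RefSeq promoters (GRCh38.p14, from 250 bases before to 50 after each transcript start, with some genes having more than 1 start) were found for 34 of the 39 genes. They were searched on both strands for GAAA, any 2 bases and a second GAAA, the core of an interferon-stimulated response element, for TTCNNNGAA, that of an interferon gamma-activated site, and for TGACNNNGC, that of an antioxidant response element, which NRF1 also reads. Each stretch below has 30 bases, 5′ to 3′ on the strand of the gene, with the match in capitals.
PSMB8 (chr6:32844032-32844061, minus strand, match at -4 from the start): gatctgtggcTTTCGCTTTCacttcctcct
PSMB10 (chr16:67936852-67936881, minus strand, match at -21): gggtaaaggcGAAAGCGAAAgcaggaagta
PSMB5 (chr14:23034896-23034925, minus strand, match at -15): ttgctaggcgTTCTCAGAAttagttctttc
PSMB3 (chr17:38752627-38752656, plus strand, match at -104): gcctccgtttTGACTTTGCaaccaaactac

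PSMB8 and PSMB10 held the same 10 letters, GAAAGCGAAA, read on the opposite strand in PSMB8. The core of the interferon-stimulated response element was found in 4 of the 34 genes, the other two being PSMA4 and PSMB4, whose log2 fold changes were 0.21 and 0.23, and in 9.52% of the 42 promoters of these genes against 3.57% of all 35116 RefSeq promoters. TTCNNNGAA was found in 7 genes, PSMB5 and PSMB8 among them, and in 16.7% of the 42 promoters against 7.66% of all. TGACNNNGC was found in 9 genes, among them PSMB3, PSMA4 and PSMC4, and in 21.4% of the 42 promoters against 13.3% of all. No matches of different motifs overlapped (0 cases), and a match describes letters only.

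Leaving out shControl 1 changed the calls of the constitutive genes. In the remaining 5 libraries, 20 of the 37 proteasome genes passed as higher in shSQLE (edgeR adjusted p under 0.05), against 15.6% of the 12570 genes then tested, and 0 passed as lower, against 18.3%. The 20 were all constitutive subunits: 10 of the 14 tested in the core and 10 of the 17 in the cap. PSMA5 had the smallest adjusted p (0.000264) and a log2 fold change of 0.55 ± 0.08 (SE), and PSMB3 had the largest, 0.57 ± 0.10 (adjusted p = 0.00153). The median over the 37 genes was 0.29 against -0.01 over all genes. That fit called 4264 of all 12570 genes, against 400 of 12450 with all 6 libraries. The controls left, shControl 2 and 3, were much alike (chi-square per degree of freedom 2.83, against 53.9 and 63.8 for shControl 1 with them). The standard errors and adjusted p of that fit thus rest on a narrow spread of controls, which may be technical. Leaving out any other single library called 0 of the 37, in fits that called few genes of the whole table: 1.3% without shControl 2, 1.68% without shControl 3, 0.867% without shSQLE 1, 0.867% without shSQLE 2 and 0.864% without shSQLE 3.

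The difference of shControl 1 from the other controls was related to the base composition and the length of the transcripts. It was above both other controls in 25 of the 37 genes and the highest of all 6 libraries in 17. Across the 37 genes, the log2 ratio of shControl 1 to the mean of shControl 2 and 3 rose with the GC content of the canonical transcript, with a Pearson r of 0.723 and a Spearman rho of 0.753, and across 12446 genes tested r was 0.713. With the log2 length of the transcript, r was -0.363 across the 37 genes and -0.541 across all. Genes share the library and are not independent, so these are descriptions. PSMB3 (GC content 53.4%) was at 0.78 on this log2 scale, PSMB7 (49.8%) at 0.70, PSMB8 (54.9%) and PSMB5 (53.0%) both at 0.67, PSMD6 (45.0%) at -0.05 and PSMD12 (37.5%) at -0.46.

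The 9 genes whose groups did not overlap had GC contents from 37.9% to 48.6%, and the other 28 from 36.4% to 61.7%, with a median of 51.7%. The 20 genes called without shControl 1 had a median GC content of 51.9%, and the 17 not called 42.2%. With offsets for GC content and transcript length within each library, an alternative added after the data were seen, 2 proteasome genes were called higher, PSMD6 and PSMB3, against 11.6% of all genes, and the median over the 37 was 0.19 against 0.10 over all genes. The part of base composition in the difference between groups was not tested. PSMB10 (61.7%) and PSMB7 (49.8%) differ more in GC content than PSMB8 and PSMB5, and the difference of their log2 ratio was -0.95 without shControl 1 against -0.80 with it.

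**Figure D4:**
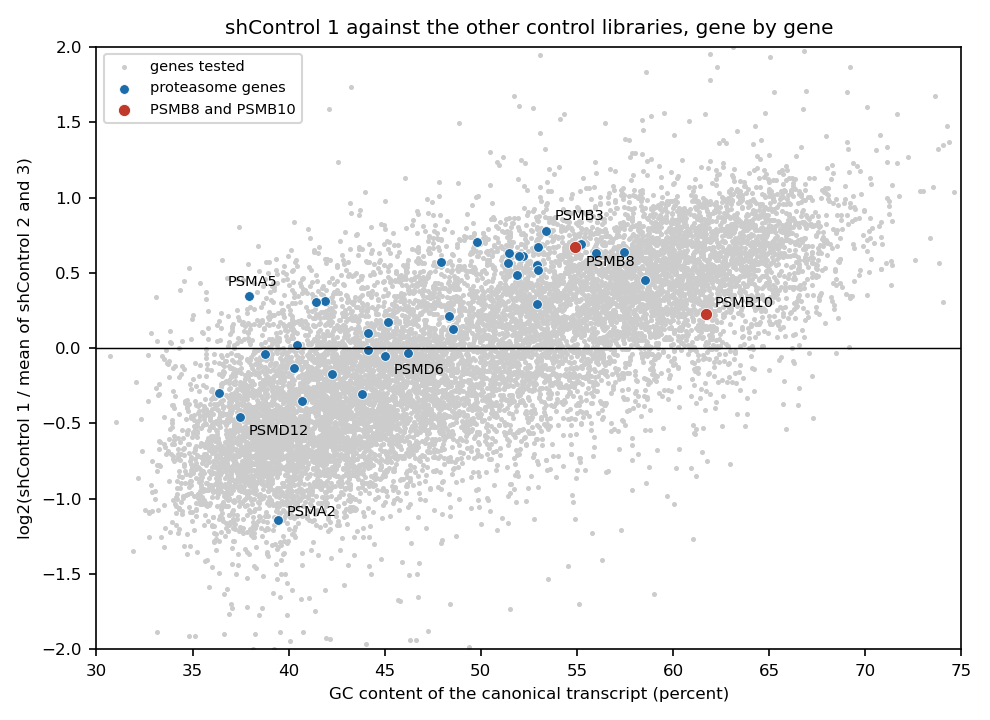
Log2 ratio of shControl 1 to the mean of shControl 2 and 3 (y axis) against the GC content of the canonical transcript in percent (x axis), with 1 point per gene. Grey points are genes tested, blue points proteasome genes and red points PSMB8 and PSMB10, and 30 genes outside the axes are not drawn. Blue points mostly rise with GC content, as from PSMD12 (-0.46) to PSMB3 (0.78). PSMA2 (-1.15), a gene of few counts, lies lowest. PSMA5 (0.34) lies above the other genes of low GC content and PSMB10 (0.23) below those of high GC content.

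Genes that work with these subunits were described from 6 lists of related genes, of which only STAT2 and IRF1 were called by DESeq2. Without shControl 1, edgeR called as higher 2 other 26S genes, 2 assembly chaperones, 1 of the activators and inhibitor and 2 ubiquitin genes (15.6% of all genes). It then called as lower 3 genes of the NRF1 axis, 3 interferon factors and 1 ubiquitin gene (18.3% of all genes). Of the other 26S subunits and enzymes bound to it, 0 of 6 were called, and SEM1, a small lid subunit, had the smallest p. Its normalised counts were 1633, 1088 and 1120 in shControl 1, 2 and 3 and 1530, 1631 and 1315 in shSQLE 1, 2 and 3. The groups overlapped through shControl 1, with a log2 fold change of 0.22 ± 0.18 (edgeR adjusted p = 0.664) that was 0.44 without that library (adjusted p = 0.00567). All 6 assembly chaperones outside the PSMA to PSMD names had log2 fold changes above 0, with a median of 0.19, and 0 were called. PAAF1, which binds ATPases of the base, had 195, 170 and 191 normalised counts in shControl 1, 2 and 3 and 271, 254 and 195 in shSQLE 1, 2 and 3. Its groups separated only by the small gap between shControl 1 and shSQLE 3, and its log2 fold change was 0.37 ± 0.16 (edgeR adjusted p = 0.347).

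Genes of the NRF1 axis of proteasome gene control mostly had lower means in shSQLE. Of its 9 genes 8 had log2 fold changes below 0, with a median of -0.12, while 48.4% of all genes tested were above 0. The list includes SYVN1, which acts against NRF1, so this count gives no direction for NRF1 activity. NGLY1, named after its values were seen, went the other way. It had 351, 432 and 469 normalised counts in shControl 1, 2 and 3 and 549, 509 and 506 in shSQLE 1, 2 and 3. These groups did not overlap, with a log2 fold change of 0.32 ± 0.14 (edgeR adjusted p = 0.352). With all 6 libraries 0 were called and 1 was lower at an unadjusted p under 0.05 (9.89% of all genes). NFE2L1 itself had 2597, 2786 and 2751 normalised counts in shControl 1, 2 and 3 and 2429, 2369 and 2513 in shSQLE 1, 2 and 3, all shSQLE libraries being below all controls, with a log2 fold change of -0.15 ± 0.09 (edgeR adjusted p = 0.543). NFE2L1 was named after its values were seen. SYVN1, a ubiquitin ligase of the endoplasmic reticulum that marks NRF1 for degradation, had the smallest p of this list. It had 708, 616 and 659 against 527, 503 and 436 normalised counts in the same order, without overlap, and a log2 fold change of -0.44 ± 0.13 (edgeR adjusted p = 0.139, and 0.0139 without shControl 1).

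Of the proteasome activators and the inhibitor, 0 of 5 were called. PSME1, an interferon-induced subunit of the 11S cap that often binds immunoproteasomes, had 1844, 1282 and 1138 normalised counts in shControl 1, 2 and 3 and 1095, 1242 and 946 in shSQLE 1, 2 and 3. The groups overlapped, shControl 1 being far the highest, and the log2 fold change was -0.38 ± 0.20 (edgeR adjusted p = 0.448). Its partner PSME2, named after its values were seen, had a log2 fold change of -0.31 ± 0.18, and PSME3 and PSME4, which are not part of the interferon response, were at 0.08 and 0.00. Without shControl 1 the log2 fold changes of PSME1 to PSME4 were -0.14, -0.09, 0.08 and -0.11.

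Among 6 interferon signalling factors, 5 had log2 fold changes below 0, with a median of -0.51. By edgeR 0 of the 6 passed the adjusted test, and 3 were lower at an unadjusted p under 0.05 (9.89% of all genes). STAT2, a transcription factor of the type I interferon response, had 390, 359 and 367 normalised counts in shControl 1, 2 and 3 and 240, 226 and 273 in shSQLE 1, 2 and 3. Every shSQLE library was below every control, including shControl 1, and the log2 fold change was -0.59 ± 0.13 (edgeR adjusted p = 0.0554, DESeq2 adjusted p = 0.00787). IRF1, which was named after its values were seen and is known to drive PSMB8 and PSMB10, had 491, 324 and 300 against 181, 229 and 171, also without overlap, with a log2 fold change of -0.94 ± 0.22 (edgeR adjusted p = 0.0713, DESeq2 adjusted p = 0.0054). Without shControl 1, 3 of the 6 passed as lower (18.3% of all genes) and 0 as higher (15.6%). STAT2 and IRF1 were among the 3 (edgeR adjusted p = 0.0037 and 0.00281).

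Of 8 genes for ubiquitin, its activating enzymes and shuttle factors, 0 were called by edgeR, 0 had an unadjusted p under 0.05 and 4 lay above 0, with a median log2 fold change of -0.004. UBA6, one of the activating enzymes, had the smallest p of this list, with 605, 969 and 1027 normalised counts in shControl 1, 2 and 3 and 739, 652 and 893 in shSQLE 1, 2 and 3. The groups overlapped, shControl 1 being the lowest library, and the log2 fold change was -0.19 ± 0.22 (edgeR adjusted p = 0.775, and 0.0215 without shControl 1, where it was -0.39). With the GC content and length offsets it was 0.048, below the median of 0.10 over all genes in that fit. The ubiquitin genes UBB and RPS27A had log2 fold changes of 0.04 and 0.09. Without shControl 1 these were 0.27 and 0.33 (edgeR adjusted p = 0.0242 and 0.0226).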

How the data were processed

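Per the labels and the study's methods, the authors purified poly(A) RNA from U2OS cells, read it as 151 bp pairs, trimmed with fastp 0.20.0, aligned to hg38 with STAR 2.7.9a and counted with featureCounts 2.0. What they deposited is a table of unnormalised counts. Annotation release, strand setting and treatment of multi-mapping reads are not given in the sources used here. Identifiers were matched to symbols (19905 of 19937). Transcript lengths and GC contents are those of GENCODE v44 canonical transcripts.

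Counts were fitted in R 4.3.3 with edgeR 4.0.16 (filterByExpr, TMM factors, glmQLFit and glmQLFTest, condition as the only term), which was also tested on simulated data. The standard error is the log2 fold change divided by the square root of F. DESeq2 1.42.0 and mgcv 1.9.3 served alternatives: other size factors and filters, a replicate block, GC and length offsets, and leaving out each library. Ratios were tested with exact permutation tests (scipy 1.17.1). Log2 fold changes of low genes are shrunk slightly by the prior count. The members and lists were chosen with earlier results of these data known. Genes given per library by rule were PSMB5 to PSMB8, PSMB10, the gene with the smallest p of each role (lid and other base subunits as 1 role) and related list, and members whose libraries stand apart. NFE2L1, NGLY1, IRF1 and PSME2 were added after their values were seen. 1 gene of the family and some related genes are not reported here.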

Additional observations from a re-analysis of the deposited data

How the results depend on the processing

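The count of proteasome genes called higher, 0 of 37 with all 6 libraries, became 20 without shControl replicate 1 and stayed at 0 without any other library (range 0 to 20). It was 2 with the GC content and length offsets. Under DESeq2, DESeq2 size factors, library size only, no filter on low counts, at least 10 counts in every library and the replicate block it was 0, and 0 were called lower under every alternative run. The median log2 fold change of the tested proteasome genes ranged from 0.12 to 0.29 when 1 library was left out, and was 0.18 with the replicate block, which called 396 genes in all against 400. Deviations of libraries with the same replicate number correlated at 0.138, -0.433 and 0.543, so the numbers were not taken to pair the samples. Libraries of different number correlated as strongly, as shControl 1 with shSQLE 2 (0.542) and with shSQLE 3 (-0.595). Likeness between libraries thus crossed the groups, and its part in the values without 1 library was not tested. The differences of the PSMB8 to PSMB5 and PSMB10 to PSMB7 log2 ratios kept their direction throughout, from -0.46 to -0.37 and from -0.95 to -0.59 when 1 library was left out, and under sign flips of the 3 numbered pairs had the smallest exact permutation p possible, 0.25. Among the 16 genes named by rule, 16 results passed the threshold under an alternative only, 11 of them without shControl 1, and 1 gene changed sign, UBA6. Its log2 fold change was 0.048 with the GC content and length offsets, a fit whose median over all genes was 0.10 against -0.01 in the main fit. UBA6 thus stayed below the median gene, and the cause was not tested. Of the other proteasome genes, PSMC5, PSMD4, PSMD5, PSMD9 and PSMC3IP changed sign when 1 library was left out. Intervals rest on 3 libraries a group, and PSMA2 and PSMB10, with under 60 normalised counts, carry the widest errors.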
